A study of Mus musculus with 165 samples.

Results

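Transcripts of 9 genes that mark astrocytes, resting or reactive, were followed with age in the mouse brain. The genes are Gfap, Vim, Serpina3n, Cd44, Aqp4, S100b, Aldh1l1, Slc1a2 and Slc1a3, and each was found by its symbol among the 55471 gene identifiers of the brain count table. All 9 passed the filter on low counts, which left 18711 genes to test. The animals were male mice of the inbred laboratory strain C57BL/6J/Ukj that were kept only to age, with no treatment and no engineered allele named in the labels. There were 15 brain libraries at 3 months, 16 at 9 months, 16 at 15 months, 17 at 24 months and 18 at 28 months. Livers of the same mice were sequenced too, and the libraries of each tissue were made in 3 preparations, called preps, that each held every age. The labels say only "brain", so the regions taken are not known, and each library is 1 mouse.

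Astrocytes are glial cells that take up transmitter from synapses, buffer potassium and water, supply neurons with substrates and cover blood vessels with flat processes called endfeet. After injury, infection or with advancing age they can become reactive, a state known for more intermediate filament protein (GFAP and vimentin) and for secreted proteins such as the protease inhibitor encoded by Serpina3n. Aldh1l1, S100b, Aqp4 and the glutamate transporter genes Slc1a2 and Slc1a3 are used as markers of astrocytes in the resting brain. None of the 9 is found only in astrocytes: Vim is also made by endothelial and ependymal cells, Cd44 by leukocytes, and S100b by some oligodendrocytes. In bulk tissue, fewer cells of a type and less RNA per cell cannot be told apart.

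Brain libraries held 11.5 to 73.4 M counts (M for mega, median 37.6 M). The neuronal transcript Snap25 was at 966 CPM (counts-per-million of the scaled library) or more in every brain library and the liver transcript Alb at 18.5 CPM or less. Among the brain libraries, 2 stood apart from the rest and touch most results for these genes. The 28-month library numbered 15 (prep 3, 11.5 M counts) had a median correlation of log2 CPM with the other brain libraries of 0.852, and the 24-month library numbered 13 (prep 2, 19.7 M counts) of 0.941, against 0.975 or more for every other one. The SD over genes of their log2 deviation from the median library of their age was 1.74 and 0.94, against 0.43 or less in the other 80 libraries. The Spearman correlation across genes between that deviation and exon length was -0.40 and -0.56, beside -0.47 to 0.43 in the others. Results are therefore given with all 82 libraries and without these 2.

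Promoters of 4 of the genes are shown because their transcripts had different courses: Gfap and Serpina3n were highest at the oldest age, S100b had its largest step in median before 9 months, and Slc1a3 medians stayed near the first level. Each run is the 250 bases before the gene's start in RefSeq on GRCm38.p6, with matches to 4 short motifs in capitals. The motifs, searched on both strands, were the STAT palindrome TTCNNNGAA, the AP-1 motif TGANTCA, the TATA motif (TATAAA) and the CCAAT motif. No 2 matches overlapped in these runs.
Gfap (chr11:102897201-102897450, minus strand): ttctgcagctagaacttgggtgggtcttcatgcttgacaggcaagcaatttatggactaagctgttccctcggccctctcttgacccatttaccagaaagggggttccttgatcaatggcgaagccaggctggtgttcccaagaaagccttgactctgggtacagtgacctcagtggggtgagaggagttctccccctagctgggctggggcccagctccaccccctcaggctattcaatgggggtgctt
Serpina3n (chr12:104406458-104406707, plus strand): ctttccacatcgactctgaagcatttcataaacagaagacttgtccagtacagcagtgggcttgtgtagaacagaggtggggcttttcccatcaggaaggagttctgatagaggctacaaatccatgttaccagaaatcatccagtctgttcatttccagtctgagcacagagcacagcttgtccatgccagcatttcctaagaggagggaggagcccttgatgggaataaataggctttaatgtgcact
S100b (chr10:76253586-76253835, plus strand): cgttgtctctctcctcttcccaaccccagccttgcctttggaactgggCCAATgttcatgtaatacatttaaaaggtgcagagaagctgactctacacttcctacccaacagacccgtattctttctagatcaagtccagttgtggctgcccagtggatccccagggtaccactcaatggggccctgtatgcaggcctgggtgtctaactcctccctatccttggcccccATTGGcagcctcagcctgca
Slc1a3 (chr15:8710808-8711057, minus strand): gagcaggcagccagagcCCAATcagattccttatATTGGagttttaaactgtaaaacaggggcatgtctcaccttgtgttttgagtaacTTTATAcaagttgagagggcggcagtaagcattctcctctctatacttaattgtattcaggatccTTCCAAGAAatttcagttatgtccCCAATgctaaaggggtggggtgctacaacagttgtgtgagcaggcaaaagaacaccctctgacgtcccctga
Of 32851 promoters in the same table, 7.02% held the STAT palindrome, 6.75% the AP-1 motif, 12.4% the TATA motif and 33.8% the CCAAT motif. The Slc1a3 run held the palindrome, 3 CCAAT matches and 1 match of the TATA motif, and S100b held 2 CCAAT matches, while Gfap and Serpina3n held none of the 4 motifs in this window. A match is a stretch of letters and no evidence of binding.

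Per kilobase of exon, the genes spanned more than 2 orders of magnitude at 3 months. Slc1a2 came first, with a median of 234 CPM per kilobase, followed by Slc1a3 (79.4), Gfap (68.1), S100b (64.2), Aqp4 (26.1), Serpina3n (21.7), Aldh1l1 (9.24), Vim (8.36) and Cd44 (0.767). The ranges over libraries overlapped for the neighbours Slc1a3 and Gfap, Gfap and S100b, Aqp4 and Serpina3n, and Aldh1l1 and Vim. Differences between neighbours were not tested. At 28 months Gfap (116 CPM per kilobase) came before Slc1a3 (81.7), Serpina3n (27.5) came before Aqp4 (18.6) and Vim (10.6) before Aldh1l1 (9.73). With all libraries the ranges of each of these pairs overlapped. For Gfap and Slc1a3 only the 28-month library numbered 15 made the overlap (Gfap 71.6, against a highest Slc1a3 of 89.7). The other pairs overlapped without it too.

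**Figure D1:**
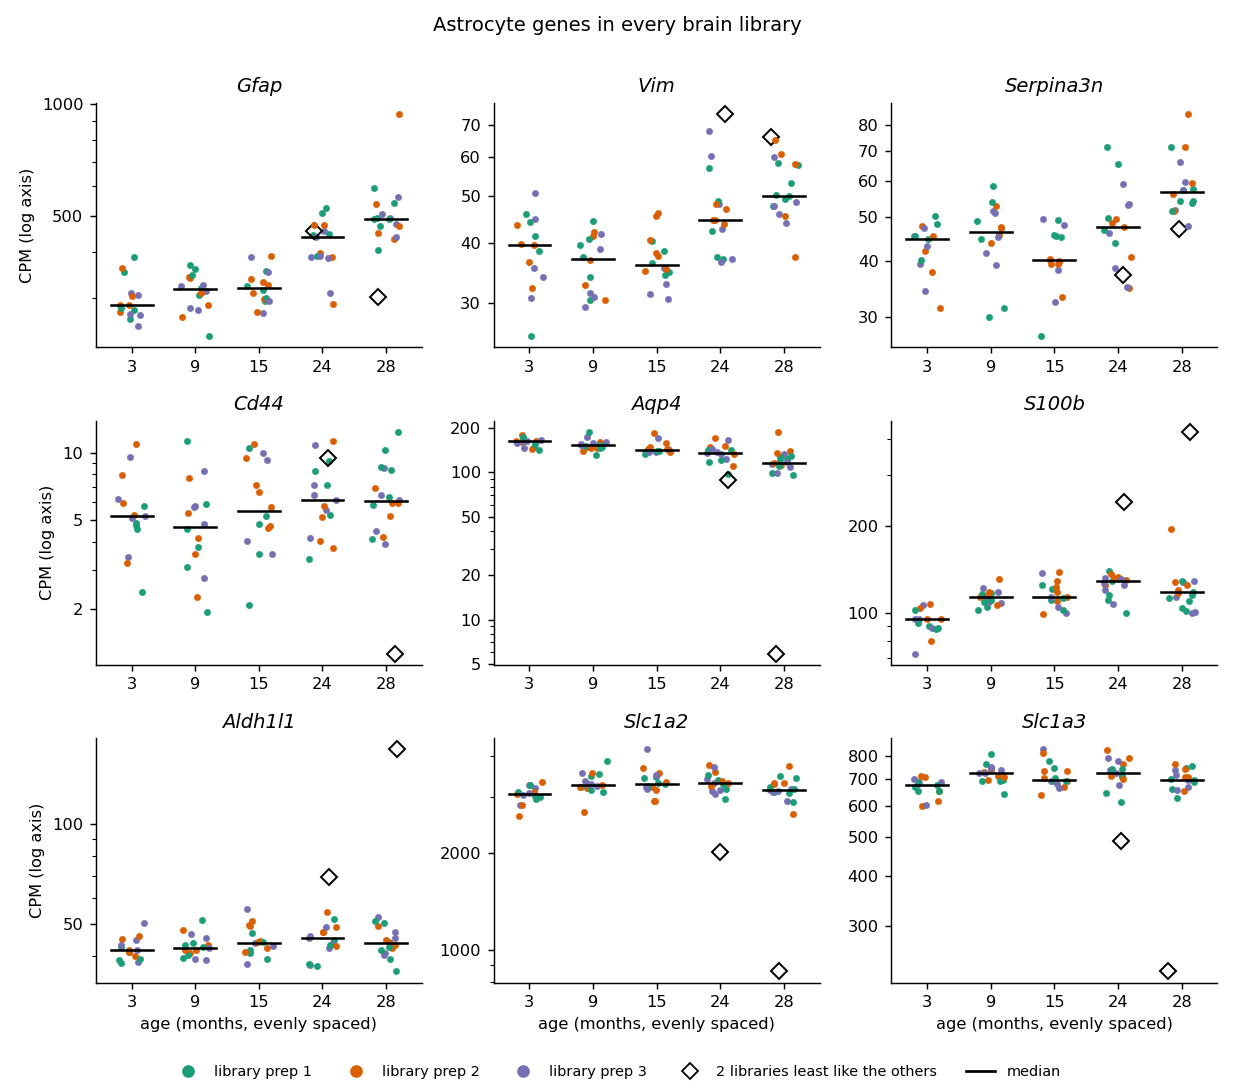
CPM of each of the 9 genes in every brain library (points, log axis) at 3, 9, 15, 24 and 28 months, coloured by library prep, with the median of each age as a bar and the 2 libraries least like the others as open diamonds. Gfap is highest at 24 and 28 months, Aqp4 declines in median from 163 to 116 CPM, both diamonds lie apart from the other points of their age for S100b, Aldh1l1, Slc1a2 and Slc1a3, and the 28-month one does for Aqp4.

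Gfap encodes the glial fibrillary acidic protein, the main intermediate filament of reactive astrocytes. Its level ran from 253 to 387 CPM at 3 months (median 287), from 237 to 369 at 9 months (median 317), from 274 to 389 at 15 months (median 319), from 289 to 525 at 24 months (median 438) and from 302 to 941 at 28 months (median 490). Libraries of 3, 9 and 15 months overlapped almost fully, 14 of the 17 libraries of 24 months lay above the highest 3-month library, and 17 of 18 did at 28 months. The exception was the 28-month library numbered 15, at 302 CPM, and the highest value, 941 CPM, came from the 28-month library numbered 8, with the next at 595.

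The log2 fold change of Gfap against 3 months was 0.06 ± 0.08 (SE) at 9 months and 0.10 ± 0.08 at 15 months, neither past the test. It rose by 0.49 ± 0.08 at 24 months (1.41-fold, adjusted p = 2.09e-06) and by 0.75 ± 0.08 at 28 months (1.69-fold, 95% interval of the log2 change 0.60 to 0.91, adjusted p = 1.63e-12, edgeR's quasi-likelihood test with Benjamini-Hochberg adjustment over all 18711 genes; the other brain fold changes have adjusted p-values over all genes tested in their own fit). The steps between neighbouring ages were 0.39 ± 0.08 from 15 to 24 months (adjusted p = 0.00195) and 0.26 ± 0.07 from 24 to 28 months (adjusted p = 0.0576). The last step became 0.30 ± 0.07 without the 2 libraries, with an adjusted p of 0.00964, and the change from 3 to 28 months 0.79 ± 0.07. In each prep alone the rise from 3 to 28 months passed the test, at 0.67, 0.91 and 0.72. Leaving out the 28-month library numbered 8 gave 0.68.

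Vim encodes vimentin, the other filament protein of reactive astrocytes. Its CPM ran from 25.7 to 50.6 at 3 months (median 39.7), from 29.4 to 44.4 at 9 months (median 37.1), from 30.6 to 46.0 at 15 months (median 35.9), from 36.5 to 73.7 at 24 months (median 44.7) and from 37.4 to 66.2 at 28 months (median 50.1). The ages overlapped throughout: 4 of 17 libraries at 24 months and 8 of 18 at 28 months were above the highest 3-month library. The highest values at these 2 ages were the 2 libraries that stood apart, and without them 3 of 16 and 7 of 17 were above. Vim rose by 0.30 ± 0.08 at 24 months (adjusted p = 0.00819) and by 0.44 ± 0.08 at 28 months (1.35-fold, adjusted p = 1.97e-05). As for Gfap, the step from 15 to 24 months passed the test (0.38 ± 0.08, adjusted p = 0.00453), while the step from 24 to 28 months was 0.13 ± 0.08 (adjusted p = 0.508). Without the 2 libraries Vim rose by 0.26 ± 0.08 at 24 months (adjusted p = 0.0115) and by 0.41 ± 0.08 at 28 months (adjusted p = 1.08e-05). The step from 15 to 24 months was then 0.34 ± 0.08 (adjusted p = 0.00895). The prep values from 3 to 28 months were 0.42, 0.48 and 0.41, and prep 1 alone passed the test.

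Serpina3n encodes a secreted serine protease inhibitor that is among the genes most often raised in reactive astrocytes. Its CPM ran from 31.5 to 50.2 at 3 months (median 44.7), from 30.0 to 58.7 at 9 months (median 46.4), from 27.3 to 49.4 at 15 months (median 40.1), from 34.9 to 71.4 at 24 months (median 47.5) and from 47.1 to 84.6 at 28 months (median 56.9). At 24 months 5 of 17 libraries were above the highest 3-month value, and at 28 months 16 of 18 were. Serpina3n at 24 months did not pass the test (0.17 ± 0.08, adjusted p = 0.193), and at 28 months it rose by 0.45 ± 0.08 (1.37-fold, adjusted p = 1.91e-05). Between 24 and 28 months the change was 0.28 ± 0.08 (adjusted p = 0.0685), which became 0.27 ± 0.08 (adjusted p = 0.0433) without the 2 libraries. The 3 preps gave 0.32, 0.66 and 0.39 from 3 to 28 months, with prep 2 alone past the test.

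Cd44 encodes a cell surface receptor for hyaluronan, found on fibrous and reactive astrocytes and on leukocytes. It was the lowest of the 9 genes, with 2.38 to 10.9 CPM at 3 months (median 5.20) and 1.26 to 12.4 CPM at 28 months (median 6.08). Its coefficient of variation between mice of 1 age was 36.8% to 48.4%. At 28 months Aldh1l1 (57.4%) and S100b (54.5%) exceeded the 40.3% of Cd44, and without the 2 libraries the highest value of any of the other 8 genes at any age was 23.1% (Gfap), below the lowest of Cd44 (34.5%). No comparison passed the test: the change from 3 to 28 months was 0.19 ± 0.21 with a 95% interval of -0.23 to 0.61. The sign differed between preps (0.84, -0.23 and -0.16).

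Aqp4 encodes the water channel of the endfoot membrane. Its CPM ran from 142 to 179 at 3 months (median 163), from 130 to 188 at 9 months (median 153), from 134 to 187 at 15 months (median 142), from 89.0 to 172 at 24 months (median 135) and from 5.86 to 189 at 28 months (median 116). The number of libraries below the lowest 3-month library was 2 of 16, 8 of 16, 11 of 17 and 17 of 18 at the successive ages. The exception at 28 months was the library numbered 8, the highest of all for Gfap as well, and the value of 5.86 was the library numbered 15, whose Aqp4 count was 51. Aqp4 fell by 0.46 ± 0.12 at 28 months (0.727-fold, adjusted p = 0.00299), and was at -0.26 ± 0.12 at 24 months (adjusted p = 0.190).

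The Aqp4 estimates moved little without the 2 libraries, and their errors shrank. The 28-month change was then -0.38 ± 0.06 (adjusted p = 1.23e-07), and Aqp4 fell by 0.23 ± 0.06 at 24 months as well (adjusted p = 0.00282). The prep values of Aqp4 from 3 to 28 months were -0.44, -0.22 and -0.72, and prep 1 alone passed the test. The lowest 28-month library of Aqp4 other than the one numbered 15 held 96.1 CPM.

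S100b encodes a calcium-binding protein of astrocytes that acts inside the cell and is also released. Its CPM ran from 72.2 to 107 at 3 months (median 95.2), from 102 to 131 at 9 months (median 113), from 99.1 to 138 at 15 months (median 114), from 99.9 to 243 at 24 months (median 129) and from 100.2 to 425 at 28 months (median 118). At 9 months 13 of 16 libraries already exceeded every 3-month library, and 12 of 16 did at 15 months, 16 of 17 at 24 months and 14 of 18 at 28 months. The 2 extreme values of S100b, 243 and 425 CPM, were the 2 libraries that stood apart. With all libraries, S100b at 9 months was at 0.29 ± 0.11 (adjusted p = 0.405) and at 15 months at 0.31 ± 0.11 (adjusted p = 0.254), and it rose by 0.48 ± 0.11 at 24 months (adjusted p = 0.000987) and by 0.55 ± 0.11 at 28 months (adjusted p = 3.45e-05).

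With the 2 libraries left out, S100b rose at every age against 3 months, by 0.29 ± 0.05 at 9 months (adjusted p = 0.000927), 0.31 ± 0.05 at 15 months (adjusted p = 0.000108), 0.42 ± 0.05 at 24 months (adjusted p = 8.56e-09) and 0.37 ± 0.05 at 28 months (adjusted p = 4.74e-08). Leaving out the 28-month library numbered 15 by itself brought the 9-month value of S100b to 0.29 ± 0.07 (adjusted p = 0.0128) and the 28-month change to 0.37, and left the 24-month change at 0.49. The 24-month change became 0.41 without the 24-month library numbered 13. Preps 1 to 3 gave 0.29, 0.51 and 0.84 from 3 to 28 months, and prep 3 held the 28-month library numbered 15.

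Aldh1l1 encodes a folate enzyme, 10-formyltetrahydrofolate dehydrogenase, used as a marker of nearly all astrocytes. Its CPM ran from 38.3 to 50.5 at 3 months (median 41.7), and the medians at 9, 15, 24 and 28 months were 42.5, 44.0, 45.4 and 43.9 CPM. The ages overlapped almost fully apart from the 2 libraries, at 69.1 and 168 CPM. With all libraries the test called Aldh1l1 higher at 28 months (0.27 ± 0.10, adjusted p = 0.0383). Its change was 0.08 ± 0.05 without the 2 libraries (adjusted p = 0.189), and without the 28-month library numbered 15 alone it was 0.08. The call was also lost without any 1 of the 3-month libraries numbered 3, 5, 14 and 16. Exons of the annotated antisense gene Gm15756 overlap 11% of the exon length of Aldh1l1, and 2.33% is shared with Gm45901 on the same strand.

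Slc1a2 and Slc1a3 encode the 2 main astrocyte glutamate transporters, GLT-1 and GLAST, which clear glutamate from the synaptic cleft. Slc1a2 ran from 2617 to 3324 CPM at 3 months (median 3067), and its medians at the later ages were 3269, 3289, 3303 and 3150 CPM. Its 2 lowest values of all were 2025 CPM in the 24-month library numbered 13 and 860 CPM in the 28-month library numbered 15. Slc1a3 ran from 598 to 714 CPM at 3 months (median 678), with later medians of 725, 698, 727 and 698 CPM and the same 2 libraries lowest, at 490 and 231 CPM. With all libraries no comparison of either transporter passed the test, and from 3 to 28 months the 95% intervals were -0.15 to 0.15 for Slc1a2 and -0.11 to 0.15 for Slc1a3. A change of the size seen for Gfap lies outside both intervals.

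In the fit without the 2 libraries, small rises of the transporters passed the test at 15 or 24 months. Slc1a2 rose by 0.14 ± 0.04 at 15 months (adjusted p = 0.0481) and by 0.13 ± 0.04 at 24 months (adjusted p = 0.0152). Slc1a3 rose by 0.13 ± 0.03 at 24 months (adjusted p = 0.00374), and its 9-month value was 0.12 ± 0.03 (adjusted p = 0.0522). At 28 months Slc1a2 was at 0.07 ± 0.04 (adjusted p = 0.203) and Slc1a3 at 0.08 ± 0.03 (adjusted p = 0.0602). Exons of the annotated antisense gene Gm13872 overlap 1.44% of the exon length of Slc1a2.

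**Figure D2:**
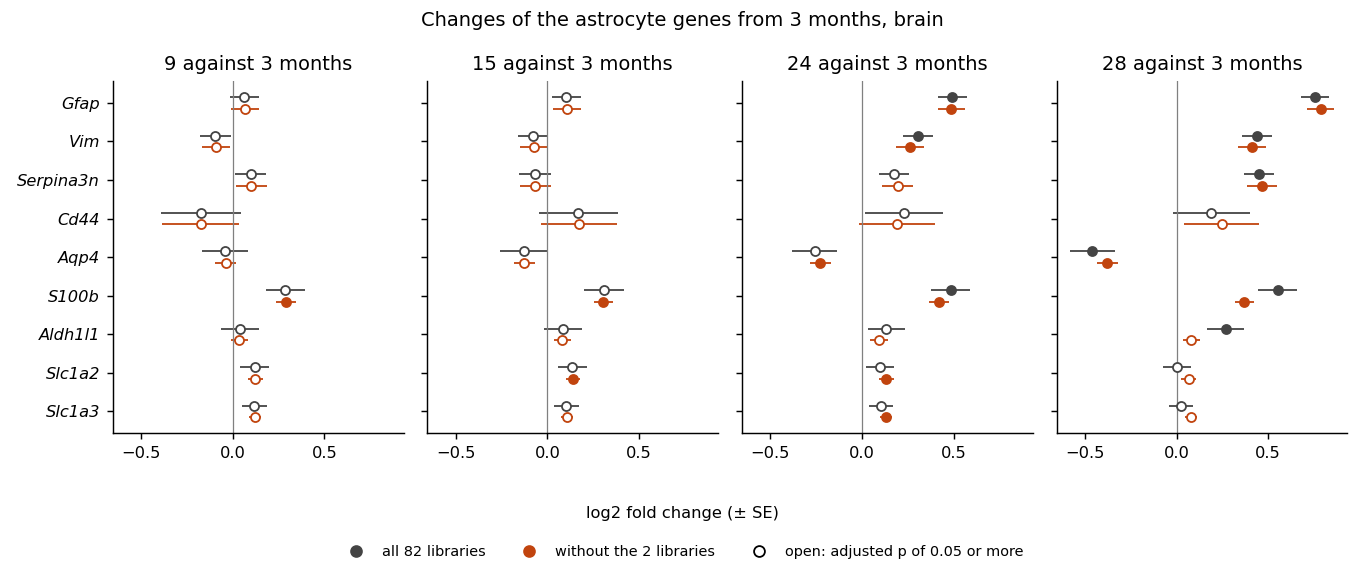
Log2 fold changes of the 9 genes at 9, 15, 24 and 28 months against 3 months, with SE as bars, from all 82 brain libraries (dark) and without the 2 libraries that stood apart (orange); filled points passed the adjusted p of 0.05. Gfap reaches 0.75 at 28 months, Aqp4 lies below 0, and the Aldh1l1 value of 0.27 drops to 0.08 without the 2 libraries.

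Counted over the 9 genes, 0 were called at 9 months, where 0.315% of all tested genes were, 0 at 15 months (background 0.871%), 3 at 24 months, all higher (background 10.1%, or 6.19% higher), and 6 at 28 months, 5 higher and 1 lower (background 28.3%). Gfap, Vim and S100b were called at 24 months, and Serpina3n, Aqp4 and Aldh1l1 joined them at 28 months. These 4 comparisons share the 3-month libraries. The median log2 change of the 9 genes at 28 months was 0.27, which is the Aldh1l1 value, beside 0.01 over all genes tested. Without the 2 libraries the median of the 9 was 0.24, the value of Cd44, which did not pass the test.

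Between neighbouring ages, the test from 9 to 15 months called 0 of the 9 and 0 of all 18711 genes (0%). Before adjustment, 0 of the 9 and 532 of all genes had a p under 0.05 there. From 15 to 24 months Gfap and Vim were called (2 of 9, background 0.732%), and from 24 to 28 months 0 of 9 (background 1.09%). With all ages tested together, 5 of 9 changed, Gfap, Vim, Serpina3n, S100b and Aqp4 (background 20.6%).

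Without the 2 libraries the counts over the 9 genes were 1 at 9 months (background 0.942%), 2 at 15 months (1.87%), 6 at 24 months (17.1%), 5 at 28 months (34.1%), 0 from 9 to 15 months (0.0214%), 2 from 15 to 24 months (1.23%), 2 from 24 to 28 months (3.58%) and 7 for all ages together (30.3%). The cause of the difference between the 2 libraries and the rest was not tested. Of the 9 genes, 6 kept 1 sign in all 3 preps from 3 to 28 months, and the 3 that did not were Cd44, Slc1a2 and Slc1a3. No gene among the 9 (0) had 3-month and 28-month libraries without any overlap, against 46 of all 18711 (0.246%); without the 2 libraries Gfap did (background 0.449%).

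A ratio between 2 genes of 1 library does not depend on how libraries are scaled, so each gene was also set against Aldh1l1 within the library. Over the 15 libraries of 3 months and 18 of 28 months, the log2 ratio of Gfap went from 2.82 ± 0.18 (SD) to 3.37 ± 0.68, a difference of 0.55 (permutation p = 0.00138, 0.00368 adjusted over the 8 ratios). Relative to Aldh1l1, Aqp4 was lower by a log2 difference of -0.82 (p = 1e-05, the smallest the permutations can give, adjusted 8e-05), with 15 of 18 libraries below every 3-month ratio. The ratio of S100b was higher by 0.28 (p = 0.00047, adjusted 0.00188). The other 5 ratios did not pass. Without the 28-month library numbered 15, whose Aldh1l1 was the highest of all, the differences were 0.70 for Gfap, 0.35 for Vim, 0.39 for Serpina3n, -0.47 for Aqp4 and 0.28 for S100b, and all 5 passed (highest adjusted p = 0.00126). The ratios of Slc1a2 and Slc1a3 to Aldh1l1 then differed between the ages by -0.01 and 0.00.

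Mice of 1 age differed from each other, and the genes did not vary as 1 block. With the means of age and prep removed, 21 of the 36 pairs of genes had a Pearson correlation past an adjusted p of 0.05 over 82 libraries, and r ranged from -0.82 to 0.94. Without the 2 libraries 17 of 36 pairs passed, 13 positive and 4 negative, with r from -0.56 to 0.67. The sign changed for 12 pairs between the 2 sets of libraries, so the pairs are described mainly over 80 libraries. All p-values are from two-sided permutation tests within age, adjusted over the 36 pairs.

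Slc1a2 and Slc1a3 varied together (r = 0.67, rho = 0.65, each p = 1e-05, the smallest possible, and 0.00012 adjusted; r = 0.69 without the 2 farthest libraries), at 0.81, 0.66 and 0.59 within preps 1, 2 and 3. Gfap and S100b had r = 0.58 (p = 3e-05, adjusted 0.000216) and rho = 0.50 (p = 2e-05, adjusted 0.00018), with 0.49 when the 2 farthest libraries were left out and 0.50, 0.67 and 0.53 within preps. With all 82 libraries the Gfap and S100b value was 0.05. Gfap also went with Vim (r = 0.37, p = 0.00124, adjusted 0.00446; rho = 0.40, p = 0.00027) and with Serpina3n (r = 0.37, p = 0.001, adjusted 0.004; rho = 0.37, p = 0.00109). For these pairs r was 0.39 and 0.38 without the 2 farthest libraries, and 0.27, 0.38 and 0.53 within preps for Vim and 0.55, 0.28 and 0.27 for Serpina3n.

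Serpina3n and Cd44 went opposite ways, with r = -0.56 and rho = -0.57 (each p = 1e-05, the smallest possible, and 0.00012 adjusted). Their r was -0.58 without the 2 farthest libraries and -0.66, -0.53 and -0.40 within preps. All libraries together gave -0.46 for this pair.

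**Figure D3:**
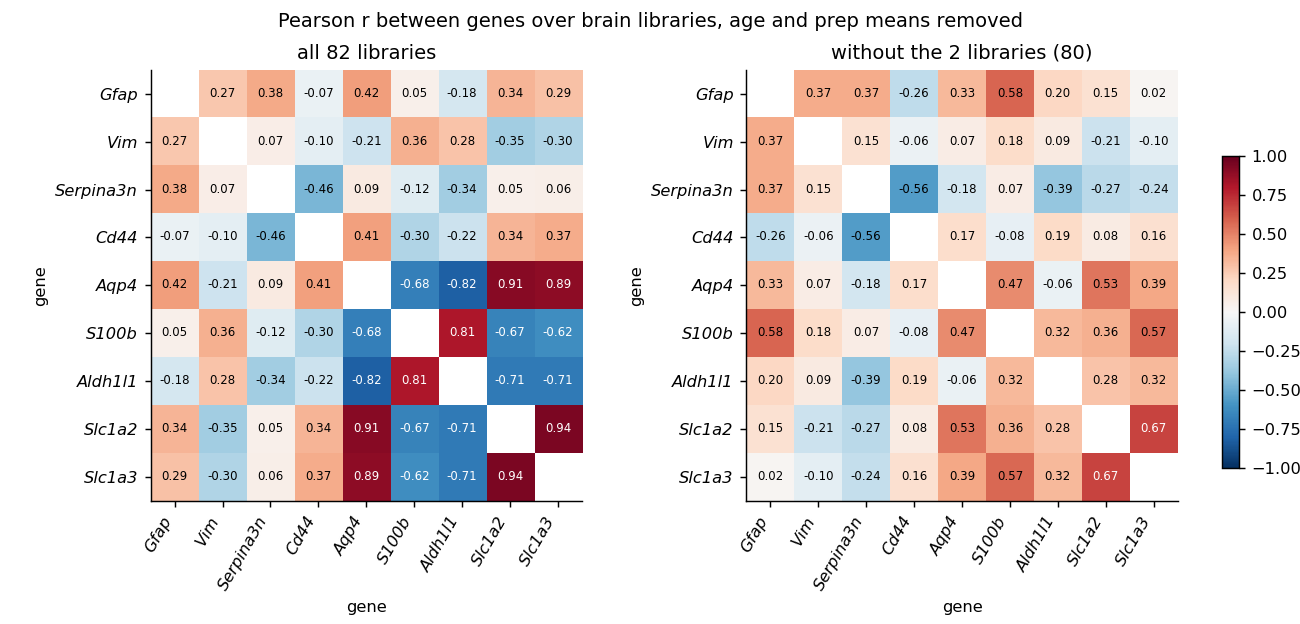
Pearson r for each pair of the 9 genes over brain libraries after the means of age and prep were removed, with all 82 libraries (left) and with 80 (right), on a scale from -1 to 1. Slc1a2 and Slc1a3 stay positive in both (0.94 and 0.67) and Serpina3n with Cd44 stays negative (-0.46 and -0.56), while S100b with Aqp4 goes from -0.68 to 0.47.

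Genes with patterns most like 3 of the members were ranked by the same r among 15006 genes averaging 1 CPM or more, as a description over 82 libraries that share preps and depth. For Gfap the 4 highest were Psat1 (0.72), Jdp2 (0.70), Gna12 (0.67) and Stx6 (0.67). For Serpina3n they were Olfml2b (0.79), Hpca (0.78), Wipf3 (0.77) and Ptk2b (0.77), and for Slc1a2 they were Prex2 (0.95), Gng12 (0.94), C030018K13Rik (0.94) and Sash1 (0.94). Without the 2 libraries the lists were Fth1 (0.77), Trem2 (0.73), Psat1 (0.72) and Padi2 (0.71) for Gfap, Arpc5 (0.86), Wipf3 (0.80), Olfml2b (0.80) and Spink8 (0.80) for Serpina3n, and Homer2 (0.77), Zfp365 (0.75), Purb (0.73) and Myo6 (0.73) for Slc1a2. Among the members themselves, the closest to Gfap was then S100b, in position 131, and the closest to Slc1a2 was Slc1a3, in position 21.

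Other genes of the reactive and resting states were read from lists, leaving out the 9 genes, in the comparison of 28 with 3 months (median log2 change of all tested genes 0.01, 28.3% called, 16.3% higher and 12% lower). Of 9 other genes raised in reactive astrocytes of any kind, 4 rose and 1 fell. Lcn2, an iron-binding secreted protein, rose by 3.07 ± 0.48 from a mean of 0.335 CPM, Timp1, an inhibitor of matrix proteases, by 1.54 ± 0.30, and Aspg by 1.05 ± 0.11, while the small heat shock gene Hspb1 fell by 0.51 ± 0.17. Of 12 genes tied to neuroinflammation-type reactivity 8 rose and 0 fell, among them the complement gene C3 (1.70 ± 0.28), the immunoproteasome subunit Psmb8 (1.06 ± 0.16) and Fbln5 (0.97 ± 0.13). Of 11 tested ischaemia-type genes 4 rose, with Tgm1 (2.03 ± 0.30), S100a10 (0.87 ± 0.20) and Cd14 (0.52 ± 0.10) the largest, and B3gnt5 fell by 0.44 ± 0.15. S100a10 was at 0.41 without the 2 libraries, below Cd14 at 0.50. The medians of these 3 lists were 0.59, 0.38 and 0.21. Without the 2 libraries they were 0.64, 0.40 and 0.25, with 6, 9 and 4 genes higher and 1, 0 and 1 lower. Of all genes 17.5% were then higher and 16.6% lower.

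Around the filaments and their control, Lmna, a nuclear lamin, rose by 0.40 ± 0.10 and Nes, the filament of progenitor cells, fell by 0.35 ± 0.09, as 1 of 5 higher and 1 of 5 lower. Lmna was at 0.23 without the 2 libraries. Of 10 tested genes of STAT3 and gp130 signalling, a pathway that drives Gfap in injured astrocytes, 3 rose and 1 fell: the oncostatin receptor Osmr by 0.59 ± 0.11, the feedback inhibitor Socs3 by 0.59 ± 0.16 and Stat3 by 0.18 ± 0.04, while Il6st, which encodes gp130, fell by 0.21 ± 0.05. Of 3 other tested genes of the serpin A3 family 0 were called (1 higher, Serpina3h, without the 2 libraries). They are paralogs of Serpina3n, and whether reads were split among them was not tested. Of 10 genes raised by glucocorticoids 6 rose, with Mt1 at 1.12 ± 0.23, Mt2 at 0.96 ± 0.22 and Sgk1 at 0.67 ± 0.15. The metallothionein values became 0.50 and 0.43 without the 2 libraries, and 5 of the 10 glucocorticoid genes rose. The STAT3 and gp130 list then gave 4 higher and 1 lower.

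Beside S100b, 8 of 9 other tested S100 genes rose, with a median of 0.87. S100a8 and S100a9, the calprotectin pair of neutrophils, rose by 3.16 ± 0.40 and 3.01 ± 0.39 from means of 0.394 and 0.571 CPM, and S100a4 by 1.06 ± 0.24. Of these 9, 5 were called without the 2 libraries, all higher, and the median was 0.41. Secreted astrocyte genes gave 5 higher and 2 lower of 13: Itih3 (0.67 ± 0.09), the matrix protein gene Sparc (0.59 ± 0.08) and the angiotensinogen gene Agt (0.52 ± 0.15) rose, and Thbs4 (-0.53 ± 0.14) and the glypican Gpc6 (-0.40 ± 0.13) fell. Without the 2 libraries 8 were higher and 2 lower, and Agt was at 0.24.

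Of 30 homeostatic genes of the resting astrocyte 6 rose and 3 fell, with a median of 0.01, and the share called was near that of all genes tested (28.3%). Prodh, which breaks down proline, rose by 0.52 ± 0.09, the glycolytic Aldoc by 0.33 ± 0.06 and the receptor Fgfr3 by 0.28 ± 0.05, while the cystine transporter Slc7a11 fell by 0.33 ± 0.10 and Ppp1r3c, which promotes glycogen storage, by 0.26 ± 0.08. The same list gave 4 higher and 7 lower without the 2 libraries, where 17.5% of all genes were higher and 16.6% lower. Of the 7 other genes of glutamate and ammonia handling, Glul, the glutamine synthetase gene, rose by 0.14 ± 0.05 and Slc7a11 fell, as given above. Beside Aqp4, 3 of 11 genes of the endfoot and the dystrophin complex fell and 0 rose, with Dag1, the dystroglycan gene that anchors the endfoot to the basal lamina, at -0.28 ± 0.06 and the gap junction gene Gja1 at -0.18 ± 0.04. Of these 11, 4 fell and 0 rose without the 2 libraries.

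**Figure D4:**
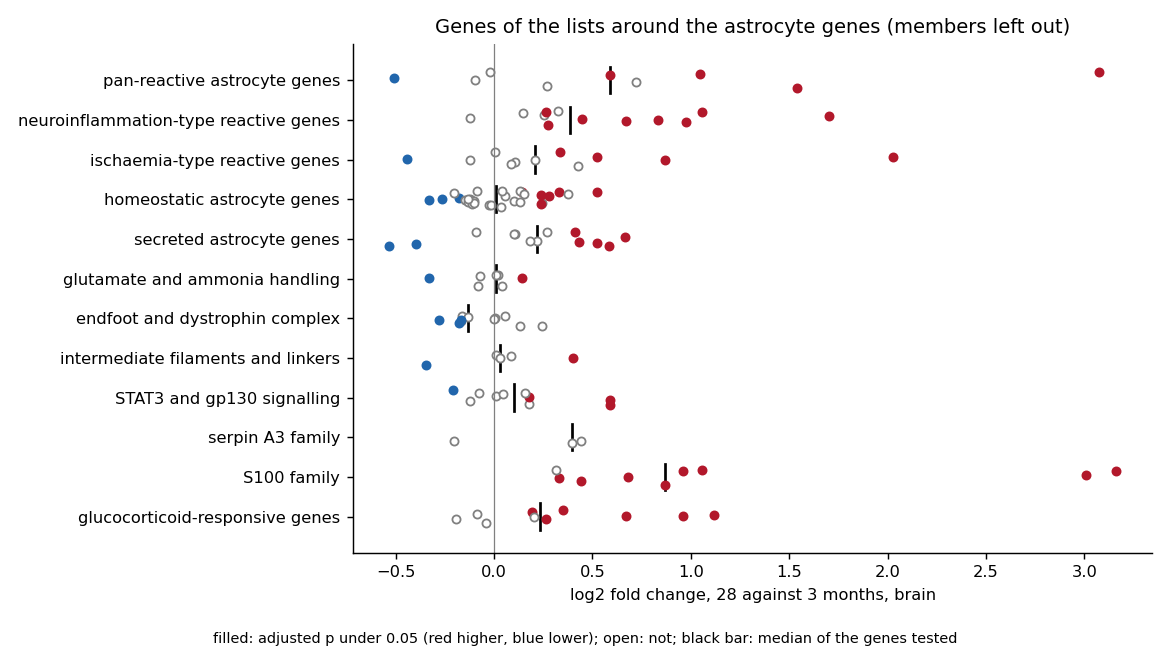
Log2 fold changes from 3 to 28 months of each tested gene in 12 lists around the 9 genes, which are themselves left out; filled points passed the adjusted p of 0.05 (red higher, blue lower) and bars are list medians. The reactive lists have medians of 0.59, 0.38 and 0.21, the homeostatic list 0.01, and the endfoot list holds 3 lower and 0 higher genes.

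Markers of other cell types moved with age too. All of the following lists had each marker above 0 in at least 1 library, and their part in the changes of the 9 genes was not tested. Of 10 microglia markers 9 rose from 3 to 28 months, and their summed level ran from 427 to 546 CPM at 3 months (median 443) and from 460 to 1033 CPM at 28 months (median 572). Of 5 tested markers of blood and infiltrating leukocytes 4 rose, the red cell genes Hbb-bs, Hba-a1 and Alas2 and the general leukocyte gene Ptprc, which microglia also express, while the B cell gene Cd79a was at 0.40 (adjusted p = 0.299) and Cd3e, Cd8a, Ms4a1 and Ly6g were too low to test (summed range 30.7 to 193 CPM, median 65.6, and 35.3 to 571 CPM, median 114), and of 8 fibroblast and meningeal markers 4 fell (103 to 207 and 61.3 to 182 CPM). Of 11 neuron markers 0 rose and 2 fell (7397 to 9363 and 4288 to 9243 CPM), and without the 2 libraries 1 rose and 1 fell. Of 9 oligodendrocyte markers 1 rose (2254 to 11221 CPM, median 4266, and 3468 to 14737 CPM, median 5124), and of 8 endothelial markers 2 rose and 3 fell. Of 7 oligodendrocyte precursor markers 2 fell, Gpr17 and Neu4 (215 to 286 and 112 to 219 CPM). Of 8 ependymal markers 1 rose, Spag6 (13.7 to 60.8 and 21.7 to 87.6 CPM), and of 7 mural cell markers 0 were called (230.4 to 311 and 221 to 291 CPM). Choroid plexus markers, 0 of 7 called, ran from 50.2 to 6496 CPM at 3 months and from 47.9 to 5344 CPM at 28 months. At 28 months the library numbered 15 gave the highest sum for the microglia, blood and oligodendrocyte lists, with the next at 933, 251 and 9875 CPM, and the lowest for neuron and fibroblast markers, with the next at 7561 and 100.3 CPM. It was also highest for the endothelial (498 CPM, next 337) and ependymal lists (next 42.4 CPM) and lowest for oligodendrocyte precursor markers (next 160 CPM). Without the 2 libraries all 10 microglia markers rose, 2 endothelial markers rose and 4 fell, and 1 mural cell marker fell.

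Livers of the same mice give the 9 genes outside astrocytes. In liver, 8 of the 9 passed the filter, S100b being near 0, and all 8 were called between 3 and 28 months, 7 higher and 1 lower (background 61.9% of 15579 genes). Serpina3n, made by hepatocytes as a secreted protein, went from a median of 333 to 905 CPM and rose by 1.21 ± 0.28. Vim rose by 1.38 ± 0.22, Cd44 by 1.51 ± 0.23, Slc1a2 by 0.56 ± 0.10 and Aldh1l1 by 0.20 ± 0.08. Gfap (median 0.432 to 0.936 CPM) and Slc1a3 (0.502 to 1.15 CPM) rose from low levels by 1.23 ± 0.19 and 1.34 ± 0.32. Aqp4 fell by 2.06 ± 0.25, from a median of 4.18 to 0.839 CPM. In liver 0 of 8 were called at 9 months (background 4.69%) or at 15 months (background 7.32%), and all 8 at 24 months (background 49%).

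The change from 3 to 28 months differed between the tissues for 7 of the 8 genes tested in both (background 49.2% of 14035 genes), and Aldh1l1 was the exception (liver minus brain -0.03 ± 0.13, adjusted p = 0.882). Without the 2 brain libraries that stood apart the Aldh1l1 difference was 0.15 ± 0.10 (adjusted p = 0.203). Liver minus brain, the log2 difference was 0.50 ± 0.19 for Gfap (adjusted p = 0.0206), 0.97 ± 0.23 for Vim, 0.80 ± 0.30 for Serpina3n, 1.35 ± 0.31 for Cd44, 0.60 ± 0.13 for Slc1a2 and 1.33 ± 0.29 for Slc1a3, all toward the larger rise in liver, and -1.55 ± 0.27 for Aqp4, toward the larger fall in liver. With mouse as a block the Gfap difference was 0.46 (adjusted p = 0.0641), so that 6 of the 8 passed. Whether a mouse high for its age in brain was also high in liver was tested over 82 mice, and 0 of 8 correlations passed. The 2 largest were Cd44 (r = 0.26, permutation p = 0.022, 0.161 adjusted over the 8; rho = 0.18, p = 0.101; 0.22, 0.20 and 0.38 within preps) and Serpina3n (r = 0.25, p = 0.0402, adjusted 0.161; rho = 0.09, p = 0.412; 0.30, 0.26 and 0.12 within preps), with r of 0.26 and 0.27 without the 2 mice farthest from the median.

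**Figure D5:**
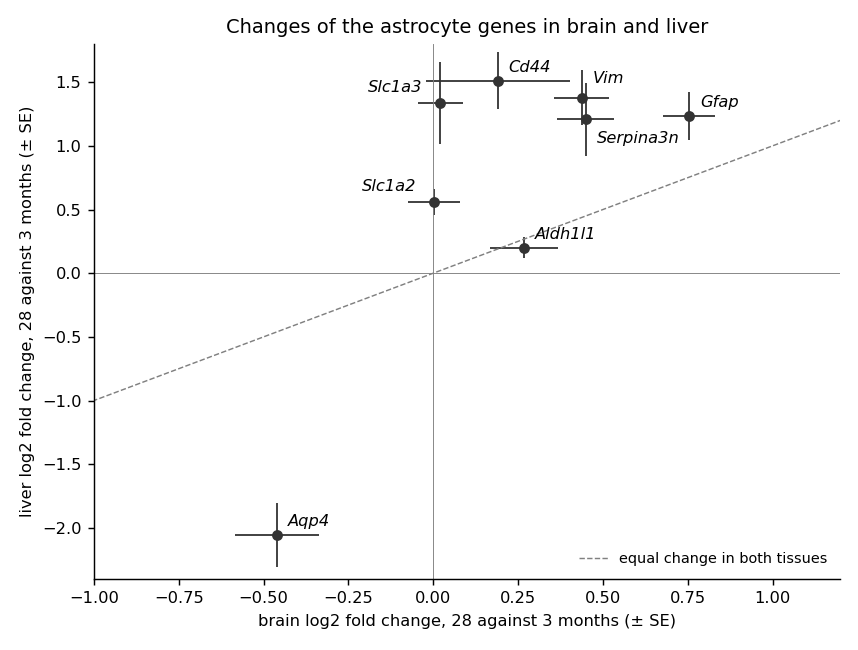
Log2 fold change from 3 to 28 months in liver (vertical) against that in brain (horizontal) for the 8 genes tested in both tissues, with SE as bars and a dashed line for equal change. With all libraries Aldh1l1 lies at the line (its brain value of 0.27 was 0.08 without the 2 libraries that stood apart). Slc1a2 and Slc1a3 sit at 0 in brain and above 0 in liver, and Aqp4 is lower in both (-0.46 in brain and -2.06 in liver).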

How the data were processed

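RNA of mouse brain and liver was sequenced as stranded, polyadenylated, paired reads of 100 bases, per the labels' protocols. Reads were handled with cutadapt 2.8, HISAT2 2.1.0, SAMtools 1.9 and featureCounts of Subread 2.0.1 on GRCm38.p6 (mm10), per the submitters' processing notes; the annotation and the strand setting of the counting are not given in the sources used here. The authors deposited raw counts per gene and library, 1 table per tissue, with whole numbers for 55471 identifiers, of which 55144 matched a symbol; 0 columns went unused. The 2 closest brain libraries differed by a mean squared residual of 4.44 where counting noise alone gives 1, so no library was counted as a repeat.

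From the counts, edgeR 4.0.16 (R 4.3.3) was used with filterByExpr by age, TMM scaling and a quasi-likelihood fit on age plus prep over all libraries of a tissue, with two-sided tests and Benjamini-Hochberg adjustment over all genes tested and calls at an adjusted p under 0.05. SE was taken from the log2 fold change and the F statistic of its test. CPM uses the TMM-scaled library total, and CPM per kilobase the merged exon length in GENCODE M21 (GRCm38). Liver libraries held 5.82 to 57.5 M (mega) counts. Ratios used counts plus 0.5 and 100000 permutations of the age label within prep, exact within 1 prep. Correlations used log2 CPM with a prior count of 2, less age and prep means, and 100000 permutations within age. Prep itself moved 380 brain genes and none of the 9 (0; lowest adjusted p 0.419). On simulated brain counts of 18711 genes, the 28 against 3 month test recovered 95% of genes changed 1.5-fold and 100% of those changed 2-fold. The simulation held no prep effect, no library with a deviating profile and no change below 1.5-fold, so recovery of smaller changes is not known.

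Alternatives were other scalings, DESeq2 1.42.0, limma 3.58.1 (voom with quality weights), other filters, fewer samples, a replicate block and each brain library left out in turn. A brain and a liver of 1 mouse form a pair because they share the animal (mean correlation of deviations 0.05). The 9 genes and the lists were chosen with earlier results of these data known. Genes named from a list are the called ones with the largest change (up to 3 higher and 2 lower), and for Gfap, Serpina3n and Slc1a2 the 4 most correlated genes; marker lists are given by counts. P-values measure the spread between mice of 1 colony. Without the 2 libraries that stood apart is an alternative chosen after seeing the data. Promoters are from RefSeq for GRCm38.p6; Aqp4, Vim, Cd44, Aldh1l1 and Slc1a2 sequences are not shown.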

Additional observations from a re-analysis of the deposited data

Results flagged for a closer look

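For 7 genes the change from 3 to 28 months differed between brain and liver of the same mice, by the interaction term of edgeR's model over both tissues. The log2 difference, liver minus brain, was 0.50 for Gfap, 0.97 for Vim, 0.80 for Serpina3n, 1.35 for Cd44, -1.55 for Aqp4, 0.60 for Slc1a2 and 1.33 for Slc1a3. With mouse as a block the test called 6 of 8, the Gfap difference being 0.46 (adjusted p = 0.0641), and without the 2 brain libraries that stood apart 7 of 8. For Gfap and Slc1a3 the liver levels were low, with medians at 3 months of 0.432 and 0.502 CPM. Groups here held 15 to 18 mice, so the check for a single outlying sample in a small group was not run.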

How the results depend on the processing

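Counts called over the 9 genes kept within 1.5 times of those reported with RLE or upper-quartile factors, DESeq2, no filter, no prep term and the replicate block, except as follows. At 9 and 15 months against 3, voom weights gave 1 and 2, the 2 ages alone 1 and 1, a refit without the 28-month library numbered 15 gave 1 and 1, and without the 2 libraries 1 and 2; each library left out in turn gave 0 to 1 at either age. At 24 months voom and the fit without the 2 libraries gave 6, and preps 2 and 3 alone 1 and 0 (0.597% and 0.486% of all genes). At 28 months these preps gave 2 and 1 (1.96% and 6.36% of all genes), and for all ages together 2 and 1 (1.42% and 1.99%), with 8 by voom. From 15 to 24 months each prep alone gave 0 (of all genes 1, 0 and 0). From 24 to 28 months RLE factors and the filter at a mean of 1 CPM gave 1, DESeq2 2, voom 3, the refit without the 28-month library numbered 15 gave 2, the fit without the 2 libraries 2 and single libraries left out 0 to 2. The Gfap call of that step was gained without any 1 of 7 libraries (9-month number 7, 24-month 12 and 13, 28-month 2, 10, 14 and 15) and that of Serpina3n without 24-month number 5 or 12 or 28-month number 15. Aldh1l1 at 28 months lost its call without 28-month number 15 or 3-month number 3, 5, 14 or 16.

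Small values changed sign from 3 to 28 months: Cd44 in preps 2 and 3 (-0.23 and -0.16), Slc1a3 in prep 3 (-0.12), and Slc1a2 in prep 3 (-0.18), without a filter (-0.00600), with the replicate block (-0.00845) and over single libraries left out (-0.016 to 0.062). The Aldh1l1 difference between tissues became 0.081 with mouse as a block and 0.15 without the 2 libraries. Ratios passing against Slc1a3 numbered 5, in prep 3 alone 0 and without the 28-month library numbered 15 5. Correlated pairs numbered 6, 4 and 6 in preps 1, 2 and 3. With the replicate block 5 of 9 genes were called at 28 months, Aldh1l1 being lost (0.24); same-numbered brains of different ages had a mean correlation of 0.01 (-0.36 to 0.38), so the numbers share no more than a label, and 9 of 82 libraries were closest to 1 with their own number. Prep alone leaves 4 to 7 libraries per age, which limits what can pass.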
